A study of Mus musculus with 4 samples.

Results

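The vascular adhesion molecules described here are 7 mouse genes, Icam1, Icam2, Vcam1, Madcam1, Sele, Selp and Selplg, whose products let leukocytes attach to vessel walls and to target cells. They were taken as every probe set (a set of short array probes summarised as 1 value) that the platform annotation pairs with exactly 1 of these symbols. All 7 genes were found, through 11 probe sets, among 18193 genes and 45037 probe sets measured. Their level was read in 4 samples of mouse liver tumor, each on its own Affymetrix whole-genome array. The tumors were driven by HrasV12, carried a tet-off shp53 (a hairpin RNA against p53 that is made until doxycycline is given) and arose from liver progenitor cells transplanted into recipient livers. In the 2 samples called p53 off, doxycycline had been given for 0 days and p53 was held down. In the 2 samples called p53 on, it had been given in the chow for 8 days, so that p53 was restored.

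Leukocytes leave the blood in steps. Selectins on the vessel wall catch passing cells by their sugars and let them roll. Chemokines then activate leukocyte integrins, which grip immunoglobulin-type molecules of the ICAM and VCAM kind and arrest the cell before it crosses the wall. E-selectin, VCAM-1 and ICAM-1 are classic products of endothelium exposed to inflammatory cytokines, whereas ICAM-2 is made by resting endothelium. In the liver, sinusoidal endothelium relies little on selectins, and ICAM-1 and VCAM-1 are also made by macrophages, stellate cells and some tumor cells.

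No sample had doxycycline without the hairpin, so restored p53, the drug and the passing of 8 days cannot be told apart. The targeted gene was not analysed here, so its state is known from the labels alone. The labels used here do not give the strain, age or immune state of the recipients. The labels do not say whether the 2 samples of a group came from separate animals or tumors, so a p-value weighs a difference against a spread that could be technical. The keratin genes Krt8 and Krt18, taken here as markers of the tumor epithelium, had log2 values between 12.22 and 14.16, and Alb, the main hepatocyte product, between 6.96 and 7.39. Other markers of these cells differed: Krt7 was at 5.88 to 6.18. The hepatocyte gene Cyp2e1 was at 9.71 in p53 on replicate 1 and at 7.24 to 7.39 on the other arrays. Array medians ran from 7.293 to 7.394. Across genes the p53 off pair had r = 0.997 and the p53 on pair r = 0.993, and pairs across groups had r from 0.965 to 0.972; genes are not independent replicates. RNA quality was read from the 3' minus 5' difference of the beta-actin controls, which was 0.262 to 0.395 with p53 off and 0.478 to 0.492 with p53 on. This difference moved with the groups, and its part in the results was not tested.

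Of the 7 genes, 5 rose in p53 on and 0 fell, at an adjusted p under 0.05 in limma. The genes that rose were Vcam1, Icam1, Madcam1, Icam2 and Selplg, while the selectin genes Sele and Selp did not pass the test. Over all genes tested 14.0% rose and 14.7% fell in the same comparison. Vcam1 and Icam1, 2 of the 7, rose by at least 2-fold, against 2.73% of all genes. In these 5 genes both p53 on samples lay above both p53 off samples, as in 36.3% of all genes. The median change of the 7 genes was 0.844 on the log2 scale, beside 0.0228 over all genes. The count depended on single arrays and on the scaling: without p53 off replicate 1 or replicate 2 only Vcam1 and Icam1 passed, 2 of 7, and with quantile normalization 3 of 7 did. These are bulk samples, in which more cells of a type and more RNA per cell cannot be told apart.

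**Figure D1:**
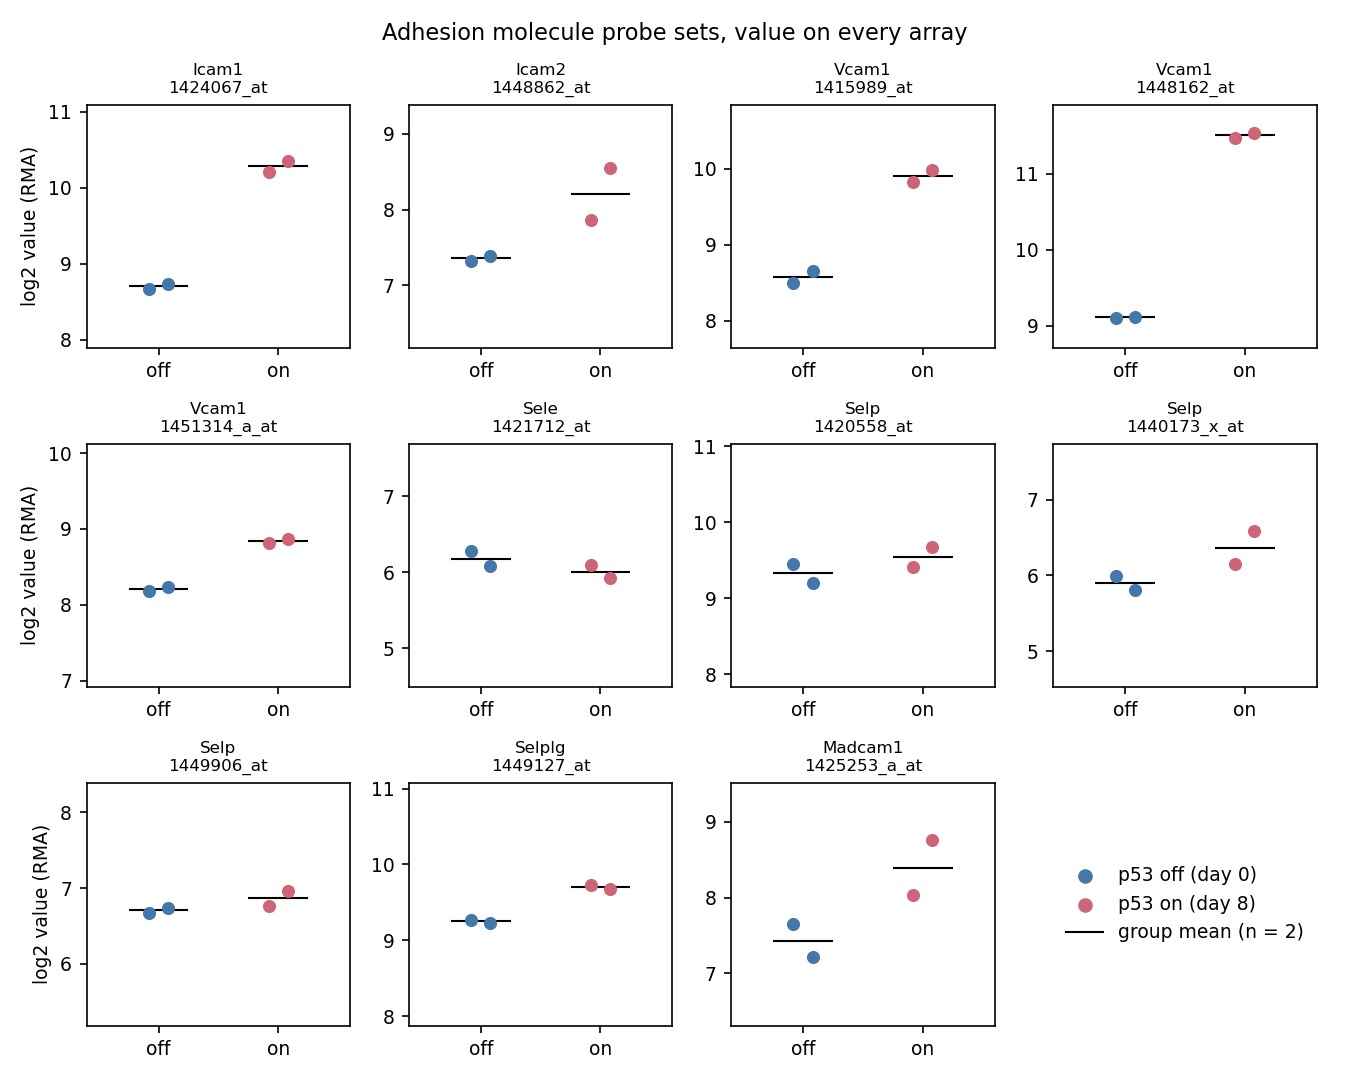
Log2 value (RMA) of each of the 11 probe sets on every array, p53 off in blue and p53 on in red, with a black line at the mean of the 2 samples of a group; every panel spans the same number of log2 units. The p53 on points lie above the p53 off points in all 3 Vcam1 panels and for Icam1, whereas they overlap for Sele and for the first of the Selp panels (1420558_at).

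Vcam1 encodes VCAM-1, the ligand of the integrin of Itga4 and Itgb1 on lymphocytes and monocytes. It had the largest change of the 7 genes when each was read at its brightest probe set, but not over the mean of its probe sets (1.45, against 1.58 for Icam1). The brightest, 1448162_at, had log2 values of 9.11 and 9.12 with p53 off and 11.47 and 11.55 with p53 on. Both p53 on samples lay far above both p53 off samples, and replicates differed by at most 0.0749. The change was 2.40 ± 0.074 (SE, n = 2 against 2; 5.27-fold; limma adjusted p = 0.00028), which placed Vcam1 at rank 36 of 18193 genes ordered from the largest rise.

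The other probe sets of Vcam1 also rose, but by less. At 1415989_at the log2 values were 8.50 and 8.66 with p53 off and 9.83 and 9.99 with p53 on, a change of 1.33 ± 0.096 (2.51-fold; limma adjusted p = 0.0011 over all probe sets). At 1451314_a_at, which the annotation links to the GenBank sequence L08431, they were 8.18 and 8.23 against 8.81 and 8.87, a change of 0.64 ± 0.073 (1.56-fold; limma adjusted p = 0.0036). The groups did not overlap at any of the 3 probe sets, and their 95% intervals, 2.22 to 2.58, 1.09 to 1.57 and 0.46 to 0.82, did not overlap either. The size of the rise thus depended on the probe set, and the average over the 3 was 1.45. Mouse Vcam1 is known to give a full-length transmembrane form and a shorter lipid-anchored form. The files do not say which form each probe set reads.

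Icam1 encodes ICAM-1, which the leukocyte integrins of Itgal or Itgam with Itgb2 bind during firm arrest and at contacts of killer cells with their targets. The log2 values of its only probe set, 1424067_at, were 8.67 and 8.73 with p53 off and 10.21 and 10.36 with p53 on. The p53 on samples were both higher, with a gap of 1.48 between the nearest samples of the 2 groups. The change was 1.58 ± 0.085 (3.0-fold; limma adjusted p = 0.00051), and it lay between 1.51 and 1.71 under all alternatives tried.

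Icam2 encodes ICAM-2, the form that resting endothelium and platelets carry. At its only probe set, 1448862_at, the log2 values were 7.32 and 7.39 with p53 off and 7.86 and 8.55 with p53 on. The groups did not overlap, but the p53 on samples were 0.69 apart against 0.0689 for the p53 off pair, with replicate 2 the higher. Icam2 rose by 0.84 ± 0.22 (1.79-fold; limma adjusted p = 0.0397). The change was 0.50 without p53 on replicate 2. The call was lost with quantile normalization (0.0509), with a crossed replicate block (0.0809) and without p53 off replicate 1 (0.145) or replicate 2 (0.148), within a range of 0.000767 to 0.148 over the alternatives. Endothelial markers had the same order within p53 on, at a mean log2 value of 9.34 in replicate 1 and 9.64 in replicate 2. Some other lists shared it, such as T and NK cell markers (7.79 and 8.01), whereas macrophage markers had the reverse order (10.50 and 10.29). A link of these orders to Icam2 was not tested.

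Madcam1 encodes MAdCAM-1, best known on the venules of the gut, where it binds the lymphocyte integrin of Itga4 and Itgb7. The log2 values at 1425253_a_at, its only probe set, were 7.65 and 7.21 with p53 off and 8.03 and 8.75 with p53 on. Both pairs were widely spread, by 0.439 and 0.724, and the nearest samples of the groups were 0.377 apart. Madcam1 rose by 0.96 ± 0.27 (1.94-fold; limma adjusted p = 0.0469), close to the threshold. The call was lost with a replicate block (0.0922), when all probe sets were tested (0.0536), with quantile normalization (0.0544) and without p53 off replicate 1 (0.0708), p53 off replicate 2 (0.224) or p53 on replicate 2 (0.0571, change 0.60), within a range of 0.00373 to 0.224. The probe set's name marks it as matching several transcripts of 1 gene.

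Sele encodes E-selectin, a classic product of activated endothelium. The log2 values were 6.28 and 6.08 with p53 off and 6.09 and 5.92 with p53 on. The groups overlapped, and the probe set was among the 40% of genes with the lowest mean value, where RMA can compress changes. The change was -0.17 ± 0.11 (limma adjusted p = 0.297), with a 95% interval from -0.44 to 0.10. A rise of the size seen in Icam1 or Vcam1 lies outside that interval. The interval covers RMA values only, so it cannot bound a change of the RNA that RMA compressed. The adjusted p ran from 0.124 to 0.789 over the alternatives.

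Selp encodes P-selectin, which endothelium and platelets store in granules and bring to the surface within minutes. Its brightest probe set, 1420558_at, had log2 values of 9.45 and 9.21 with p53 off and 9.41 and 9.67 with p53 on. The groups overlapped, and the change of 0.21 ± 0.13 (limma adjusted p = 0.281; 95% interval -0.11 to 0.53) did not pass the test. A dim probe set, 1449906_at, had a change of 0.16 ± 0.093 (limma adjusted p = 0.29). The other dim one, 1440173_x_at, whose name marks likely cross-hybridization, had values of 5.99 and 5.81 against 6.15 and 6.59, and a change of 0.47 ± 0.16 (limma adjusted p = 0.0931). None of the 3 passed the threshold, though 1440173_x_at did so without p53 on replicate 1 (0.0103) and after scaling to the spike-in controls (0.0338), within a range of 0.0103 to 0.368. Platelet and megakaryocyte markers, another source of Selp, had 0 of 9 genes called in either direction and a median of 0.0977. Their summed level, on the linear scale, was 2340 to 3270 with p53 off and 2990 to 3250 with p53 on. Of these markers Ppbp, a platelet chemokine gene, had values of 7.87 and 6.54 with p53 off and 6.22 and 6.29 with p53 on.

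Selplg encodes PSGL-1, the leukocyte ligand of the selectins, and is the 1 gene of the group whose product sits mainly on the leukocyte. Its log2 values at 1449127_at were 9.27 and 9.23 with p53 off and 9.73 and 9.67 with p53 on. The pairs were tight, and the nearest samples of the groups were 0.405 apart. Selplg rose by 0.45 ± 0.073 (1.37-fold; limma adjusted p = 0.00894). The call was lost without p53 off replicate 1 (0.0511) or replicate 2 (0.0739), at changes of 0.46 and 0.43, within a range of 0.00362 to 0.0739. Of 8 pan-leukocyte markers 6 rose and 0 fell, with a median of 0.611 and a summed level of 14400 to 15500 with p53 off and 21300 to 21400 with p53 on. Of these markers 3 rose without p53 off replicate 2, and 3 rose, with a median of 0.263, when probe sets named _a_at, _s_at or _x_at were left out. The part of leukocyte number in the rise of Selplg was not tested.

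**Figure D2:**
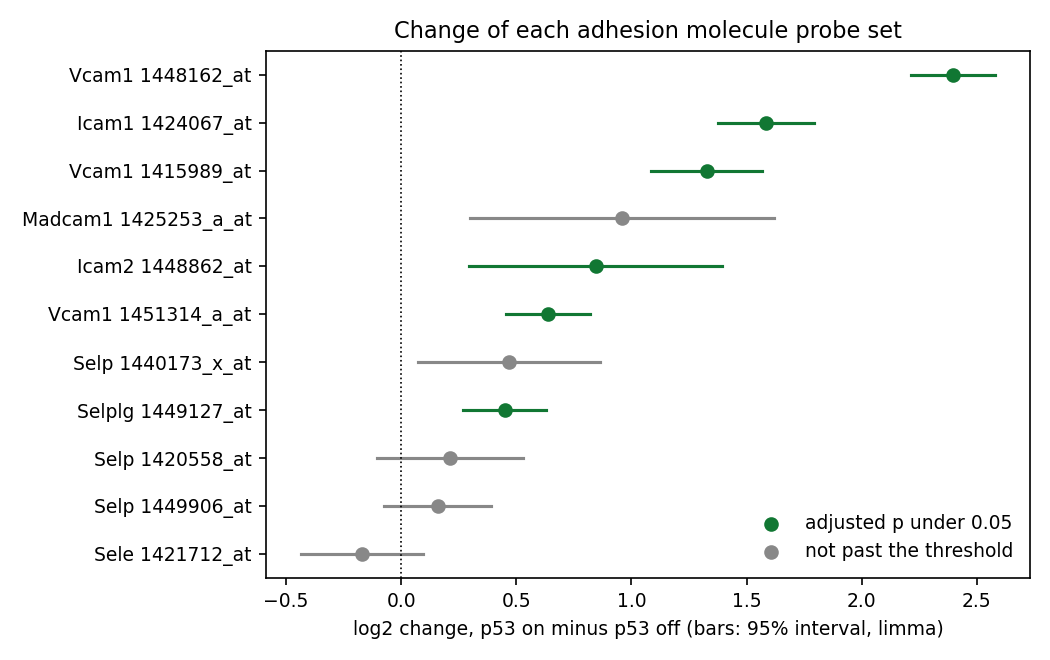
Change in log2 value, p53 on minus p53 off, of each of the 11 probe sets (point) with its 95% interval from limma (bar), green where the adjusted p over all 45037 probe sets was under 0.05 and grey otherwise. The 6 green probe sets are those of Icam1, Icam2, Selplg and all 3 of Vcam1; the interval of Madcam1 leaves out 0, but its adjusted p of 0.0536 does not pass.

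Tested as probe sets rather than genes, 6 of the 11 rose and 0 fell, against 11.3% and 11.5% of all 45037 probe sets. The groups did not overlap at 9 of the 11, all higher with p53 on, as at 36.1% of all.

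The 250 bases before the RefSeq transcription start are shown for Icam1 and Madcam1, which rose, and for Sele, which did not pass the test, because the sequence before each start is the classic region of cytokine control. Sequences are from RefSeq (GRCm38.p6), whose promoter table held 4 of the 7 genes, these 3 and Selp. Each reads 5′ to 3′ on the plus strand and ends 1 base before the start that the table gives. For Icam1, Madcam1 and Selp that start is the first base of the RefSeq gene, whereas for Sele it lies 8620 bases inside it. Capitals mark every match, on either strand, to 6 motifs. They are the NF-kB consensus, a relaxed NF-kB core GGANNTTCC, the interferon-type GAS element TTCNNNGAA, the CRE-like element TGACNTCA, the TATA box TATAAA and the p53 decamer consensus.

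Icam1, chr9:21015690-21015939: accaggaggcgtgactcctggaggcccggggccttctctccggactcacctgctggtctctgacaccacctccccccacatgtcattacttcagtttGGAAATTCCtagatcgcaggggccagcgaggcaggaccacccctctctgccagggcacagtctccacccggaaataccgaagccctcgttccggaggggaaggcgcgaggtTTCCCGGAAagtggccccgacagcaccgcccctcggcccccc

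Madcam1, chr10:79664309-79664558: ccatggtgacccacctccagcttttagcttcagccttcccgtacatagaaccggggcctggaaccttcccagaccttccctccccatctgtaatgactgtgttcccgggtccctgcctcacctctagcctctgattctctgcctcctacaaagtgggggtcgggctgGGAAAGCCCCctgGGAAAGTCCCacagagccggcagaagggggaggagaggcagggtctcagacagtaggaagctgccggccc

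Sele, chr1:164047984-164048233: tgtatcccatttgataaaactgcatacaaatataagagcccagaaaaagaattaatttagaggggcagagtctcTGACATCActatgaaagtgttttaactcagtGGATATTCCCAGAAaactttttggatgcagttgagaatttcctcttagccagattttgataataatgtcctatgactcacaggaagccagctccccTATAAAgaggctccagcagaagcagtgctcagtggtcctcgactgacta

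In Icam1 the capitals mark ggaaattcc at -153 to -145 from the start, which matches the NF-kB core on both strands, and the GAS match ttcccggaa at -42 to -34. Madcam1 held the NF-kB consensus in a row, at -83 to -74 and at -70 to -61, where the latter overlaps a match to the core. Sele held the CRE-like tgacatca at -176, the NF-kB core ggatattcc at -145, which overlaps a GAS match at -140, and a TATA box at -49. The window of Selp held none of the 6 motifs, and no match to the p53 decamer consensus was found in these windows. Of 32851 promoters of this length 3.59% held the core, 3.9% the NF-kB consensus, 7.02% the GAS element, 7.49% the CRE-like element, 12.4% the TATA box and 7.13% the p53 decamer. The motifs were chosen with the genes in view. A match describes letters only, and its part in the values was not tested.

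Other genes of leukocyte attachment were taken from 6 lists, with 84 of 89 genes measured, of which 27 rose and 17 fell. The shares over all genes, 14.0% that rose and 14.7% that fell, belong beside this and each list count below. Among the counter-receptors on leukocytes 3 of 11 rose and 2 fell (median 0.0138, or -0.061 after centring on array medians). In this list 5 rose when arrays were scaled to the spike-in controls, and without p53 off replicate 2 only 1 fell. Itga4, whose product forms part of the receptors of VCAM-1 and MAdCAM-1, rose by 1.08 ± 0.12 (0.37 averaged over its probe sets). Itgb7, the partner of Itga4 in the receptor of MAdCAM-1, had a change of 0.01 ± 0.076 and did not pass (limma adjusted p = 0.919). Itgax, an integrin gene of dendritic cells and macrophages, rose by 0.64 ± 0.072. Itgal, of the receptor of both ICAMs, rose by 0.60 ± 0.16 (limma adjusted p = 0.0431), close to the threshold. Its partner gene Itgb2 changed by 0.22 ± 0.071 and did not pass (limma adjusted p = 0.0715). The genes that fell were Itgb1, by 0.49 ± 0.10, and Cd24a, a mucin-like ligand of P-selectin, by 1.53 ± 0.082.

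Of 13 genes of enzymes that build selectin ligands 1 rose and 3 fell, 7.69% and 23.1%, beside 14.0% and 14.7% of all genes. The median was -0.0189, or 0.112 with spike-in scaling and 0.00597 with quantile normalization. With these scalings 3 and 2 genes rose, and the median was -0.213 without probe sets named _a_at, _s_at or _x_at. Chst2, a sulfotransferase gene of L-selectin ligands, rose by 1.25 ± 0.16 (0.53 averaged over its probe sets). Gcnt1, which branches O-glycans, fell by 1.10 ± 0.13, and C1galt1c1, the chaperone of the enzyme that extends them, by 0.72 ± 0.09 (0.36 averaged over its probe sets). The fucosyltransferase genes Fut4 and Fut7, which cap the ligands, had changes of -0.21 ± 0.13 and -0.02 ± 0.11.

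Of 16 transmigration and junction molecules 8 rose and 4 fell (median 0.301). Without p53 off replicate 1 or replicate 2, 5 or 4 rose and 2 fell, with spike-in scaling 2 fell, and the median was 0.131 over the mean of all probe sets. The median of this list was 0.439 without probe sets named _a_at, _s_at or _x_at, and 0.432 with spike-in scaling. Cd34, which carries L-selectin ligands on venules, rose by 1.23 ± 0.079, and Aoc3, the vascular adhesion protein gene, by 1.18 ± 0.13. Alcam, a ligand of CD6 on T cells, fell by 1.51 ± 0.20, and Podxl, a sialomucin gene also made by epithelia, by 1.28 ± 0.11 (0.69 averaged over its probe sets). Of 10 cytoskeletal anchors and sheddases, which tether adhesion molecules inside the cell or cut them off, 1 rose and 4 fell (median -0.184). This count was not stable: 2 rose and 1 fell with spike-in scaling (median -0.0532), 2 fell with either replicate block and without p53 on replicate 2, 2 rose with quantile normalization, and 0 rose and 1 fell without either p53 off array. Ezr, which links ICAMs to actin, fell by 1.06 ± 0.08 (0.46 averaged over its probe sets), Actn1 fell by 0.34 ± 0.072, and the protease gene Mmp14 rose by 0.41 ± 0.071. The calls of Actn1 (0.11 and 0.105) and Mmp14 (0.0681 and 0.0762) were lost without p53 off replicate 1 or 2, and that of Actn1 with spike-in scaling too (0.101). Their limma adjusted p ran from 0.00871 to 0.11 and from 0.00419 to 0.0762.

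Among 18 cytokines and receptors that induce adhesion molecules 8 rose and 3 fell (median 0.247). Without p53 off replicate 1 or replicate 2, 4 or 5 rose, and the median was 0.484 with dim genes left out and 0.378 with spike-in scaling. The cytokine genes Il6, Il1b and Il1a fell by 2.43 ± 0.27, 1.56 ± 0.093 and 0.68 ± 0.15. Tnf rose by 0.33 ± 0.091 (limma adjusted p = 0.0467), close to the threshold. Osmr, a receptor gene of the IL-6 family, rose by 1.0023 ± 0.14 (0.56 averaged over its probe sets), and the receptor genes Tnfrsf1a and Il1r1 by 0.64 ± 0.089 and 0.63 ± 0.09. Of 16 NF-kB and induced transcription factor genes 6 rose and 1 fell (median 0.283). Without p53 off replicate 2 only 1 rose and 0 fell, 0 fell without p53 off replicate 1 or with spike-in scaling, and the median was 0.147 without p53 on replicate 2. The same median was 0.393 without p53 on replicate 1 and 0.414 with spike-in scaling. Nfkbie and Nfkbia, inhibitors that NF-kB itself induces, rose by 1.25 ± 0.22 and 0.67 ± 0.091, and Jun, a subunit gene of AP-1, by 0.61 ± 0.096. Without p53 off replicate 2 the calls of Nfkbie (0.0625) and Jun (0.0601) were lost, within ranges of 0.00224 to 0.0625 and 0.00338 to 0.0601. Rela, the main activating subunit gene, had a change of 0.11 ± 0.072 (limma adjusted p = 0.33).

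**Figure D3:**
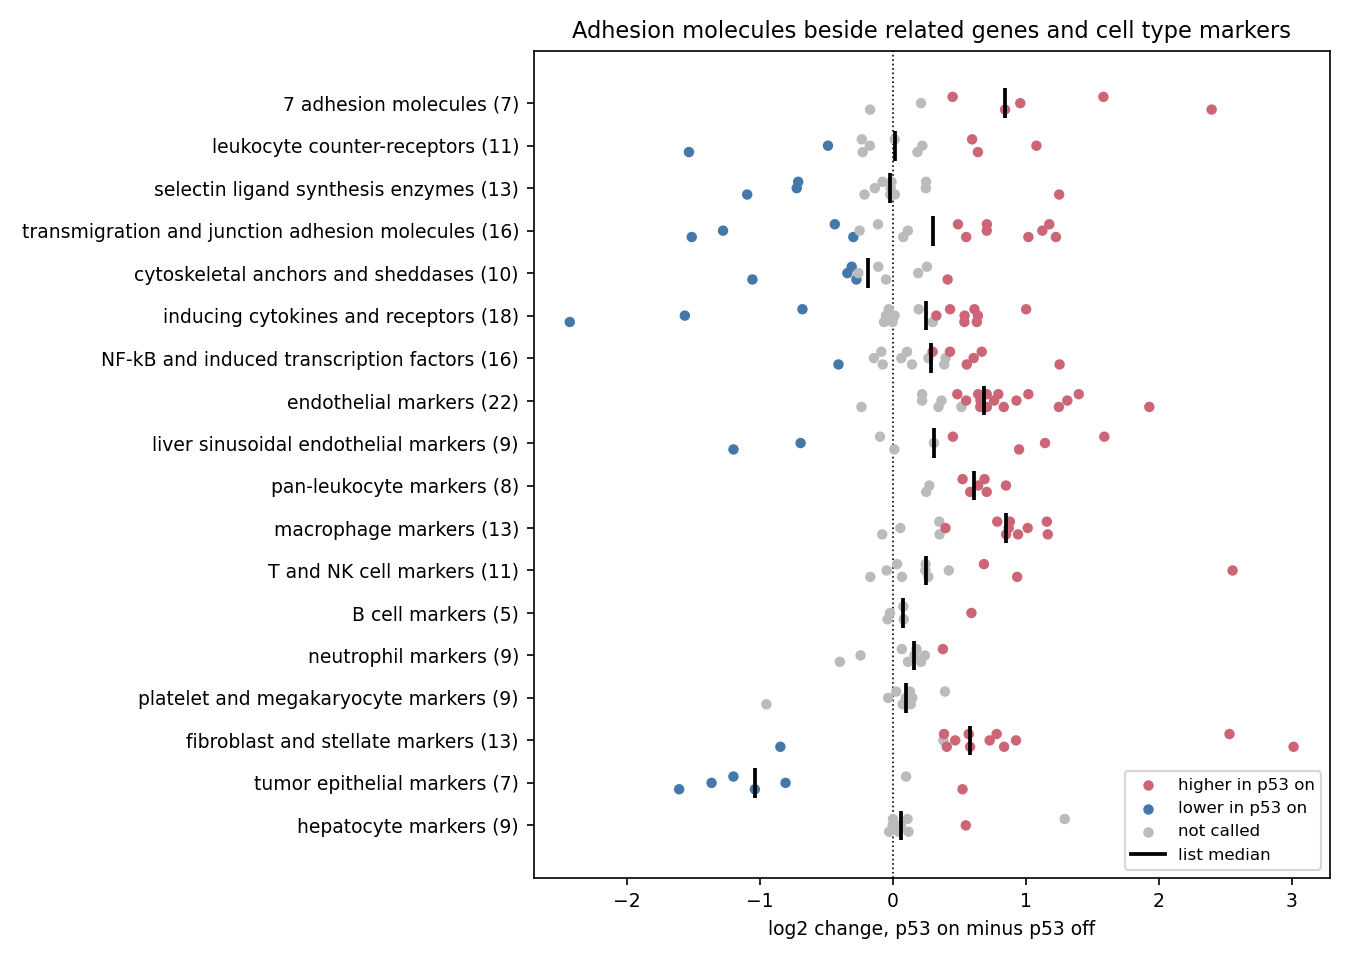
Change in log2 value, p53 on minus p53 off, of every measured gene (point) of the 7 adhesion molecules, of the 6 related lists and of 11 cell type marker lists, with the number of genes in brackets, colored by the limma call at an adjusted p under 0.05; the black bar is the list median. The median of the 7 genes is 0.844, beside 0.683 for endothelial, 0.852 for macrophage and 0.581 for fibroblast and stellate markers.

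Markers of several cell types that carry these molecules moved with the groups. Few or none of the B cell, neutrophil and platelet markers passed the test, but over all genes too only 14.0% rose and 14.7% fell. Some of these markers were dim, such as Cd79b at log2 values of 5.58 to 5.75, where RMA can compress changes. Of 22 endothelial markers 16 rose and 0 fell (median 0.683), and their summed level was 12300 to 12600 with p53 off and 20000 to 23900 with p53 on. The number that rose was 10 without p53 off replicate 1 and 8 without replicate 2. Plvap, a gene of fenestrated vessels, rose by 1.93 ± 0.12, and Pecam1 by 0.71 ± 0.17, while Flt1, a VEGF receptor gene, had a change of -0.24 ± 0.071 that did not pass (limma adjusted p = 0.0599). Of 9 markers of liver sinusoidal endothelium 4 rose and 2 fell (median 0.309; summed level 7810 to 8430 and then 10400 to 11500). Of 13 macrophage markers 9 rose and 0 fell (median 0.852; 22800 to 25700 and then 42300 to 49800). Fibroblast and stellate markers rose in 11 of 13 genes and fell in 1 (median 0.581; 59500 to 68200 and then 113000 on both arrays), of which 6 rose without p53 off replicate 2. Of 11 T and NK cell markers 3 rose, or 1 without p53 off replicate 2 (median 0.246; 2640 to 3140 and then 4370 to 7350), and of 5 B cell markers 1 did (966 to 999 and then 1260 to 1300). The T and NK cell sum leaned on Gzma, with log2 values of 9.06 and 8.45 with p53 off and 10.575 and 12.05 with p53 on. The other genes of that list that rose were Nkg7, by 0.93 ± 0.083, and Ncr1, by 0.69 ± 0.12. With dim genes left out only 1 gene of the list rose. Cd3d of that list had a change of -0.05 ± 0.074 and did not pass. Neutrophil markers rose in 1 of 9 genes (1540 to 2200 and then 1680 to 2100). Tumor epithelial markers fell in 5 of 7 genes and rose in 1 (median -1.04; 38900 to 44900 and then 16700 to 17400). Hepatocyte markers rose in 1 of 9 genes (1580 to 1600 and then 1620 to 2410). Cyp2e1 of this list was at 9.71 in p53 on replicate 1 and 7.39 in replicate 2. Without p53 off replicate 2, 0 of the neutrophil, hepatocyte and tumor epithelial markers rose, and without p53 on replicate 2, 3 hepatocyte markers did. RMA gives no value of 0, so no marker is at 0, and the part of cell makeup in the changes of the adhesion molecules was not tested.

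Set beside the markers of the same arrays, the 7 genes changed unequally. The 22 endothelial markers had a mean change of 0.73. Against this mean, the change of Vcam1 at its brightest probe set was larger by 1.67 and that of Icam1 by 0.853. The other probe sets of Vcam1 lay nearer to it, 1415989_at 0.597 above and 1451314_a_at 0.0929 below, and the mean of the 3 was larger by 0.724. Icam2 and Madcam1 differed from it by 0.114 and 0.228, and Selplg, Selp and Sele by -0.281, -0.518 and -0.901. Against 8 pan-leukocyte markers, with a mean change of 0.565, Selplg differed by -0.115 and Vcam1, at its brightest probe set, by 1.83 (0.889 over the mean of the 3). Against 13 fibroblast and stellate markers, with a mean change of 0.828, Vcam1 differed by 1.57 (0.626 over the mean of the 3) and Icam1 by 0.756. These differences within an array do not move when arrays are rescaled by a constant. They were not tested. Single markers varied around these means, from -0.236 to 1.93 for endothelial and from 0.251 to 0.851 for pan-leukocyte ones. For fibroblast and stellate markers the range was -0.846 to 3.01. Icam1, at 1.58, lay within the endothelial range. Vcam1 at its brightest probe set, at 2.40, lay above that range but within the fibroblast and stellate one. Both lay above the pan-leukocyte range. The placement of Vcam1 depended on the probe set. Its probe sets 1415989_at, at 1.33, and 1451314_a_at, at 0.64, lay within the endothelial range, the latter also within the pan-leukocyte one.

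The genes most like each called gene were found as those with the smallest root mean square difference of log2 values over the 4 arrays, after each gene was centred on its own mean. For Vcam1 they were H2-Aa, an MHC class II gene, at 0.0396, the transporter gene Slc16a12 at 0.0475 and Dzip1, a cilium gene, at 0.053, which rose by 2.32 ± 0.074, 2.47 ± 0.079 and 2.46 ± 0.09. For Icam1 they were Ppp1r9a at 0.0302, Cyp4b1 at 0.0408 and Gask1b at 0.0486. Icam2 was closest to Rgs13, a regulator of G-protein signalling, at 0.0369, the interferon-inducible GTPase gene Irgm2 at 0.0614 and 1500011B03Rik at 0.0717. For Selplg they were the kinase gene Sik2 at 0.0113, Ccdc83 at 0.0129 and Treml4 at 0.0138. Madcam1 was closest to Rpl39l at 0.0421, Hmcn1 at 0.0455 and the monocyte chemokine gene Ccl2 at 0.0462, which had log2 values of 10.21 and 9.71 with p53 off and 10.66 and 11.33 with p53 on. With 4 arrays in 2 groups, such likeness reflects mainly the size of the change and the order within each pair.

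**Figure D4:**
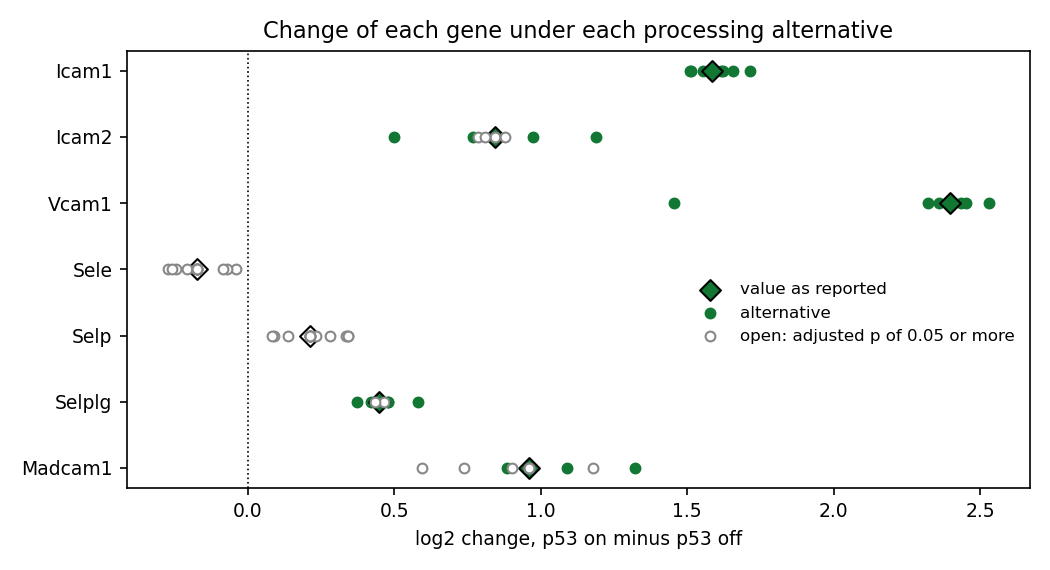
Change in log2 value, p53 on minus p53 off, of each of the 7 genes as reported (diamond) and under each processing alternative (circle), filled where the limma adjusted p was under 0.05 and open otherwise. All values of Vcam1 lie between 1.45 and 2.53 and all values of Icam1 between 1.51 and 1.71, filled throughout, whereas those of Icam2 (0.50 to 1.19), Madcam1 (0.60 to 1.32) and Selplg (0.37 to 0.58) include open circles.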

How the data were processed

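Total RNA of 4 mouse liver tumor samples had been extracted with Trizol, amplified by in vitro transcription and labelled with biotin, per the labels' protocols, and hybridized to 1 array each. The authors deposited log2 values made with RMA, 1 for each probe set on each array. This comes from the submitters' processing notes, where limma 3.14.4 is named as well. Their genome build is not given in the sources used here. Values come without a detection call, and those of dim probe sets lie near background. The table held 45101 probe sets. The 64 control probe sets were left out, and of the rest 34945 had exactly 1 gene symbol in the platform annotation, 932 several and 9160 none. Gene IDs of 34741 matched the RefSeq table (GRCm38.p6), and 0 symbols changed.

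For each gene the brightest probe set, by the mean of the 4 arrays, was used. The 18193 genes, and separately all 45037 probe sets, were fitted in limma 3.58.1 (R 4.3.3; lmFit, eBayes). The contrast was p53 on minus p53 off, with no filter and no block, and Benjamini-Hochberg adjustment ran over all features. An exact permutation test of 2 against 2 arrays cannot give p under 0.333, so none was used. Intervals are at 95% per feature, unadjusted. The number of arrays limits the precision.

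The 7 genes, the gene lists, the alternatives and the motifs were chosen with earlier results of these data known. Named were all 7 genes with all probe sets, of each related list up to 3 called genes of largest change whose groups did not overlap, and for each called gene the 3 most like it. Fut4, Fut7, Itgal, Itgb1, Itgb2, Itgb7, Tnf, Tnfrsf1a, Il1r1, Rela, Aoc3, Plvap, Pecam1, Flt1 and Ppbp were named after their values were seen. So were Il1a, Krt7, Cyp2e1, Cd79b, Cd3d, Gzma, Nkg7 and Ncr1. The replicate numbers do not pair the samples by the labels, and deviations of the same number correlated with r = -0.154. Alternatives covered normalization, dim features, the choice of probe set, the variance model, the replicate number as a block and leaving out each array. Figures were drawn with matplotlib 3.10.9 (Python 3.11.15).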

Additional observations from a re-analysis of the deposited data

How the results depend on the processing

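The rises of Vcam1 and Icam1 kept their direction and call under all 14 alternatives, and all 7 genes kept their direction under every alternative that gave them a value. Madcam1 has none when probe sets named _a_at, _s_at or _x_at are left out, as its only probe set is of the first kind, and Sele none with dim genes left out. The count of genes that rose was 3 of 7 with quantile normalization, where Icam2 (0.78) and Madcam1 (0.90) lost their calls, and 2 to 5 when 1 array was left out. Madcam1 also lost its call, at a change of 0.96, with all probe sets tested. With 1 array left out the changes ran from 0.50 to 1.19 for Icam2, 0.42 to 0.48 for Selplg, 0.60 to 1.32 for Madcam1, 1.51 to 1.65 for Icam1 and 2.36 to 2.43 for Vcam1; the array then alone in its group was taken to vary as the other pair does. With a replicate block 4 of 7 genes and 6 of 11 probe sets rose, and Madcam1 (0.96) lost its call, while 23 related genes rose. A crossed block, chosen after seeing the data, gave 4 of 7, where Icam2 (0.84) lost its call, and 6 of 11. Over the 6 related lists, 13 to 31 genes rose and 8 to 16 fell with 1 array left out, against 27 and 17, and 11 fell with spike-in scaling. That scaling moved the median of all genes from 0.0228 to 0.154. Over all genes 2550 rose and 2673 fell, against 2106 and 3451 after centring on array medians, 4421 and 1892 with spike-in scaling, and 1093 and 1135 without p53 off replicate 2 or 1583 and 1676 without replicate 1. Where the construction of an alternative (fewer arrays, other features tested) does not show it, the cause was not tested.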
